A study of Caenorhabditis elegans with 4 samples.

Results

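Chromosome IV of Caenorhabditis elegans carries 2 long domains of piRNA genes, and the peaks described here are those whose midpoint lies in either of them: from 4.5 to 7 Mb (the left domain, IV at 4500001 to 7000000) and from 13.5 to 17.2 Mb (the right domain, IV at 13500001 to 17200000), on build WS220. The domains were chosen with earlier results of these data known, and peaks were assigned to them by position alone. These peaks number 549 of the 5338 in the series-wide list, 187 in the left domain and 362 in the right. The rest of IV holds 586. The peaks come from ChIP-seq, in which chromatin bound by a protein is pulled down with an antibody and sequenced, here for NHR-28, a nuclear hormone receptor. Whole hermaphrodites of strain OP317 at the first larval stage (L1; the stage label reads L1 26dC, and its suffix is not explained) were grown at 20 °C. They carried the transgene wgIs317, which holds nhr-28 fused to TY1, EGFP and FLAG tags together with an unc119 copy, in an unc119(ed3) background, and the plasmid was brought in by bombardment. All 4 samples, 2 precipitated with anti-GFP antibodies (replicate 1 and replicate 2) and 2 inputs, share this strain, stage and sex. Worms without the tag were not analysed here, and neither were the inputs.

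piRNAs, called 21U-RNAs in worms, are small RNAs that start with uracil and bind the Argonaute protein PRG-1 to silence foreign and transposon sequence in germ cells. Most of their genes are single tiny transcription units with a short upstream motif, and they lie between and inside ordinary genes in 2 wide stretches of IV. In newly hatched larvae the germ line consists of a pair of precursor cells, so chromatin from whole L1 worms is mostly somatic. The RefSeq gene table of assembly WBcel235 lists 15363 piRNA genes, of which 14714 (95.8%) are on IV. In the gene order of IV, 86.7% of these have a piRNA gene as neighbour on both sides, and the longest unbroken run is 167 genes. That assembly is not the build of the peaks, so single piRNA genes were not placed against single peaks, and whether these domains hold the genes on WS220 was not tested.

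3 peak lists were compared. The series-wide list covers the whole series, while the replicate 1 list (806 peaks) and the replicate 2 list (803 peaks) each belong to 1 ChIP sample. The authors' peak caller gave every peak a significance value of at most 0.001, and the smaller this value, the stronger the peak. Read counts and depth behind the peaks are unknown. Intervals below are 95% intervals that cover counting error only and treat peaks as independent of each other. As no label says that the replicates were separate cultures, their agreement measures only the spread between these samples.

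Both domains held more peaks per Mb than the rest of IV, the right domain most. In the series-wide list the left domain had 74.8 peaks per Mb (exact Poisson interval 64.5 to 86.3), the right domain 97.8 (88.0 to 108.5) and the rest of IV 51.9 (47.8 to 56.3). The domains make up 35.4% of the length of IV and held 48.4% of its peaks. Density in the left domain was thus 1.44 times that of the rest (exact interval of the ratio 1.22 to 1.70). In the right domain it was 1.89 times that of the rest (1.65 to 2.15) and 1.31 times that of the left domain (1.09 to 1.57).

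The replicate lists gave similar ratios. Replicate 1 had 26 peaks in the left domain, 47 in the right and 79 in the rest of IV, or 10.4, 12.7 and 7.00 per Mb. Replicate 2 had 25, 62 and 80 peaks, or 10, 16.8 and 7.08 per Mb. The right domain stood above the rest in both, by 1.82 times in replicate 1 (1.24 to 2.64) and by 2.36 times in replicate 2 (1.67 to 3.34). For the left domain the ratios were 1.49 (0.916 to 2.34) and 1.41 (0.863 to 2.24), and both intervals include 1 at these peak numbers. Right and left domain had a ratio of 1.22 in replicate 1 (0.741 to 2.06) and 1.68 in replicate 2 (1.04 to 2.78), so the order of the domains was not separated from counting error in replicate 1.

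**Figure D1:**
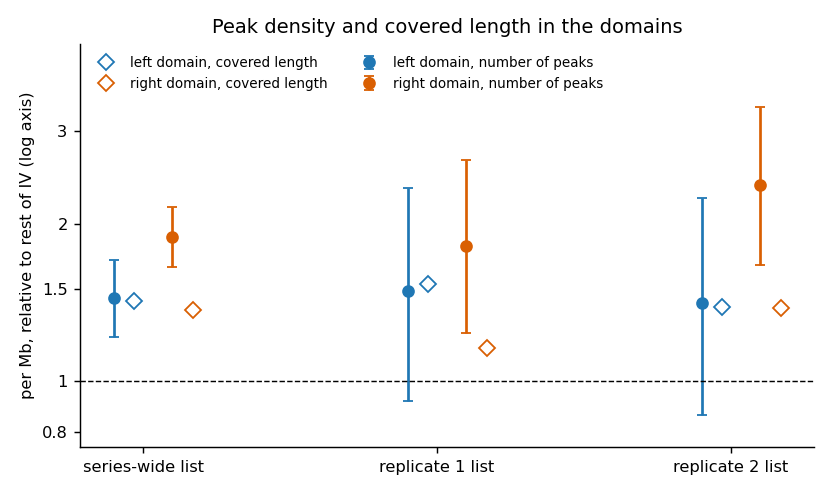
Density of peaks (filled circles with exact 95% intervals) and length covered by peaks (open diamonds) per Mb in each piRNA domain, divided by the same quantity in the rest of IV, for the 3 lists; the vertical axis is logarithmic and the dashed line marks equality. The right domain lies above the left in number of peaks in every list, whereas its covered length per Mb lies below that of the left, by a small margin in replicate 2 (1.38 against 1.39).

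Covered length set the right domain apart from the rest less than numbers did. Peaks of the series-wide list covered 16890 bp per Mb in the left domain (mean width 226 bp), 16240 in the right (mean width 166 bp) and 11850 in the rest of IV (mean width 228 bp). Relative to the rest, covered length was 1.42 times in the left domain and 1.37 times in the right. In replicate 1 these ratios were 1.53 and 1.16, and in replicate 2 they were 1.39 and 1.38. Covered length per Mb in the right domain was 0.962 times that of the left in the series-wide list, 0.757 times in replicate 1 and 0.996 times in replicate 2, although the right domain held more peaks per Mb in each.

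Within the domains, peaks were bunched in the left and spread more evenly over most of the right. In 500 kb steps from its first base the left domain held 35, 37, 61, 29 and 25 series-wide peaks, so 1 step alone held 61 of 187. The same step was the highest in replicate 1 (9 of 26) and in replicate 2 (10 of 25). Without it, a choice made after the counts were seen, the left domain had 1.21 times the density of the rest (0.993 to 1.47). In the right domain the 7 full steps held 53, 35, 50, 50, 59, 50 and 57 peaks, and the least dense of these matched the median step of the left domain (35). Its last 200 kb held 8 peaks. Of the 22 steps of 500 kb that hold no domain base, the median had 24 peaks and the densest 45. No 100 kb bin was empty in either domain. The fullest 100 kb bin held 16 peaks in the left and 20 in the right domain, and one elsewhere on IV held 22.

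Neighbouring peaks lay a median of 6.31 kb apart in the left domain, 5.31 kb in the right and 10.8 kb in the rest of IV. Gaps under 1 kb made up 11.3%, 15.5% and 9.78% of these. The longest stretch without a peak was 110.2 kb in the left domain, 84.5 kb in the right and 183.2 kb elsewhere.

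**Figure D2:**
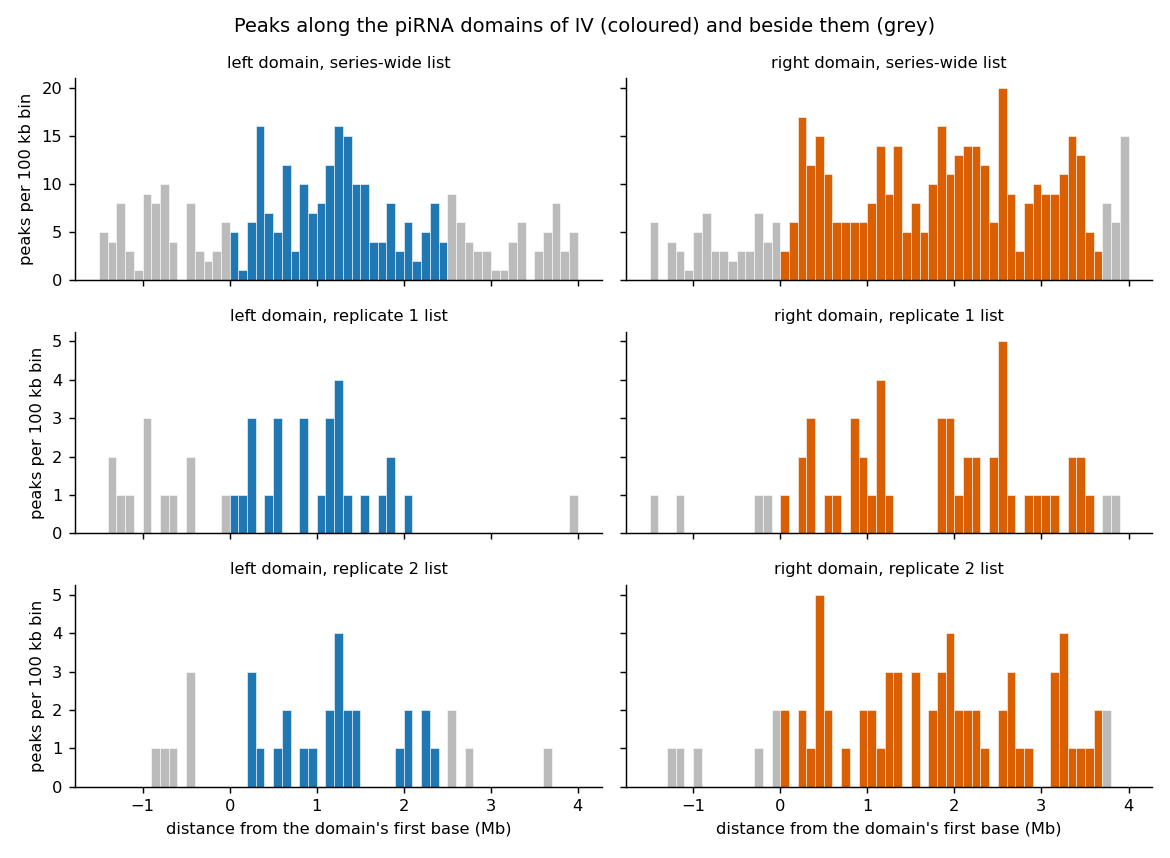
Number of peaks per 100 kb bin against the distance in Mb from the first base of the left domain (left column) and of the right domain (right column), in the series-wide, replicate 1 and replicate 2 lists; coloured bins lie in the domain, grey bins beside it, and the last bin on the right is shorter because the chromosome ends. In the series-wide list the higher counts of the right domain begin 200 kb inside its start, and its last 200 kb hold 8 peaks.

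Within 200 kb of the domain edges, the series-wide list held no more peaks inside than outside. In the 200 kb just inside and just outside each edge, a width chosen after the counts were seen, there were 6 and 9 series-wide peaks at the start of the left domain and 12 and 15 at its end. At the start of the right domain there were 9 inside and 10 outside, and at its end 8 and 14. At the starts of the domains, the higher counts began further in. Over 500 kb the start of the right domain had 53 peaks inside against 23 outside, with 6 against 2 in replicate 1 and 10 against 3 in replicate 2. The start of the left domain had 35 against 22 over 500 kb, with 6 against 3 in replicate 1 and 4 against 3 in replicate 2, and its end had 25 and 25. The last 200 kb of the right domain had 40 peaks per Mb, below the rest of IV, and the 292.3 kb beyond it, up to the end of the chromosome, had 29 peaks, or 99.2 per Mb. Over its last 500 kb the right domain held 47 peaks, or 94 per Mb, so its end showed no step down. In the replicate lists the piece beyond the domain held 2 peaks each.

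The 8 peaks nearest to the edges, inside and outside, all had values of 3.04e-06 or more. The first left domain peak lay at 4513650 to 4514019 (value 1.84e-05) and the nearest peak before it, outside, at 4498039 to 4498138 (3.62e-06). At the other end the last peak inside lay at 6993777 to 6993944 (3.04e-06) and the next outside at 7012952 to 7013083 (0.000993). For the right domain, the first peak inside was 10 bp wide at 13502611 to 13502620 (0.000162) and the last before it 9 bp wide at 13489273 to 13489281 (2.76e-05). The last peak inside lay at 17192710 to 17192820 (2.2e-05) and the first beyond it at 17209724 to 17209752 (0.000692). None of these 8 peaks overlapped a replicate list. Over the whole series-wide list 22.0% of peaks overlapped at least 1 replicate list and 14.9% had a value under 1e-06. At 8 peaks, neither trait sets the edges apart from the list.

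Chromosome arms elsewhere were compared with the domains, because the right domain lies in a chromosome arm. Windows of 3.7 Mb at the same distance from the right end held 75.4 series-wide peaks per Mb on I, 74.9 on II, 91.1 on III, 56.2 on V and 10.3 on X. Relative to the remainder of its own chromosome, such a window was denser by 1.23 times on I (1.07 to 1.42), 1.41 times on II (1.22 to 1.62) and 1.19 times on III (1.04 to 1.35). On V the ratio was 1.16 (0.994 to 1.36) and on X 0.977 (0.665 to 1.40). On IV, with the left domain counted in the remainder, it was 1.75 (1.54 to 1.98). This was the highest of the 6 ratios, and its interval overlapped that of II alone. In replicate 1 the window ratio on IV was 1.67 (1.16 to 2.38) and that on I was 1.62 (1.11 to 2.35). In replicate 2 it was 2.20 on IV (1.58 to 3.04) and 1.72 on II (1.22 to 2.41). IV was thus the highest in every list, but in the replicate lists not beyond the counting error of the next chromosome.

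The left domain stood out less from like windows. Windows at its distance from the left end held 59.6 series-wide peaks per Mb on I, 50.4 on II, 70.8 on III, 55.2 on V and 12.4 on X, against 74.8 for the domain itself. The ratio to the remainder of the chromosome, which here includes the right domain, was 1.18 on IV (1.01 to 1.39). It was 0.906 on I, 0.839 on II, 0.857 on III, 1.13 on V (0.935 to 1.35) and 1.22 on X (0.803 to 1.81). In replicate 1 it was 1.24 on IV (0.778 to 1.90), 1.43 on V and 1.25 on II. In replicate 2 it was 1.06 on IV (0.661 to 1.62) and 1.23 on V. IV was thus not the highest in any list. Among all 97 bins of 1 Mb on the 6 chromosomes, those that started on IV at 15000001 and 16000001 were the densest, with 109 and 107 peaks. The next densest were on III, with 102 and 101. The bin at 5000001 to 6000000 in the left domain ranked 5, with 98, and the one at 14000001 ranked 7, with 85. The other full bin of the left domain, at 6000001 to 7000000, ranked 47, with 54.

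Peaks in the right domain were narrower than those elsewhere on IV, and those in the left domain were not. The median width was 138 bp in the right domain (exact order-statistic interval 122 to 152), 178 bp in the left (159 to 197) and 176 bp in the rest of IV (165 to 189). The middle 50% of widths ran from 66 to 225.5 bp in the right domain, from 93 to 314.5 bp in the left and from 91 to 313 bp in the rest. Peaks under 50 bp made up 19.3% of the right domain (Wilson interval 15.6 to 23.7), 13.9% of the left (9.67 to 19.6) and 14.2% of the rest (11.6 to 17.2). The right domain differed from the rest by 5.17 points in this share (Newcombe interval 0.345 to 10.3). Over the whole series-wide list 17.9% of peaks were under 50 bp, which lies inside the interval of the right domain. In every region the narrowest peak was 2 bp wide.

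The right domain had the narrowest median in both replicate lists too. In replicate 1 the median was 149 bp in the right domain (middle 50% from 91.5 to 240), 267 bp in the left (199 to 374.8) and 239 bp in the rest of IV (116.5 to 384.5). In replicate 2 it was 197.5 bp (147.5 to 245.5), 266 bp (180 to 478) and 272 bp (197.8 to 379.8). The 95% interval of the median of the right domain lay below that of the rest in replicate 2 and overlapped it in replicate 1.

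Strength was similar over most of the range, and the very strongest peaks made up a smaller share of peaks in the domains than in the rest of IV. The median value was 0.000179 in the left domain (8.04e-05 to 0.000288), 0.000132 in the right (9.93e-05 to 0.000175) and 0.000149 in the rest of IV (0.000114 to 0.00018), so these medians were not separated. Over the whole series-wide list 14.9% of peaks had a value under 1e-06. The left domain had 18 of 187 (9.63%, Wilson 6.18 to 14.7), the right domain 39 of 362 (10.8%, 7.98 to 14.4) and the rest of IV 70 of 586 (11.9%, 9.56 to 14.8). The strongest 533 peaks of the whole list included 30 of the 549 domain peaks (5.46%, 3.85 to 7.69) and 56 of the 586 other peaks on IV (9.56%, 7.43 to 12.2), a difference of -4.09 points (Newcombe interval -7.19 to -1.01). Each domain by itself gave -4.21 points (left, -7.80 to 0.511) and -4.03 points (right, -7.30 to -0.474). These are shares of peaks and not densities, as the 30 peaks lay in 6.2 Mb and the 56 in 11.3 Mb. At the limit of 1e-06 the difference of both domains from the rest was -1.56 points (-5.24 to 2.14). The smallest value was 6.11e-19 in the left domain and 8.88e-12 in the right, against 4.9e-38 in the rest of IV.

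**Figure D3:**
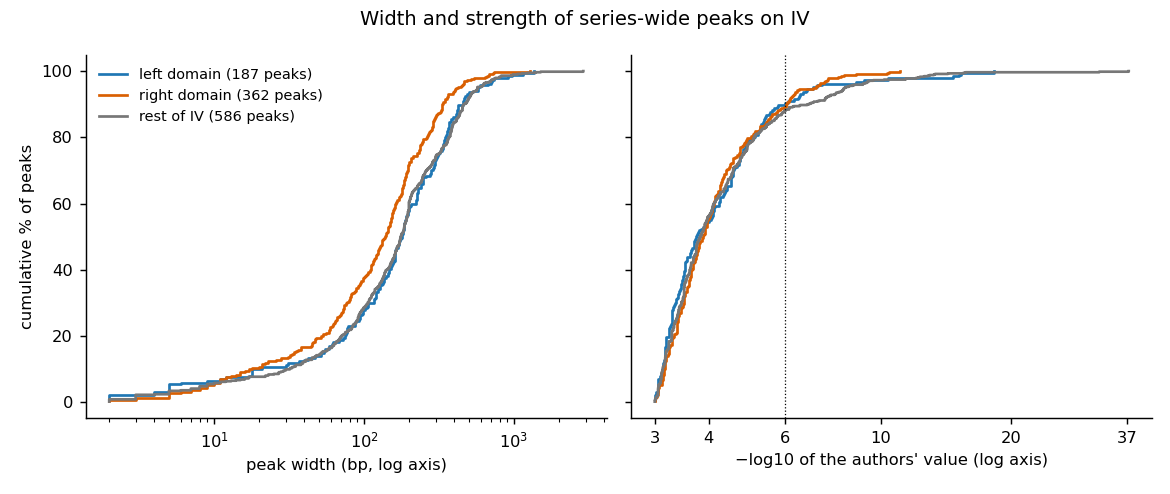
Cumulative percentage of series-wide peaks on IV by width in bp (left, log axis) and by −log10 of the authors' significance value (right, log axis; the dotted line marks 1e-06), for the left domain, the right domain and the rest of IV. The right domain curve lies to the left in width, with a median of 138 bp against 178 and 176, and it ends at 8.88e-12 in strength.

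In the replicate lists the right domain held 1 peak under 1e-06 in all. Over all chromosomes 15.3% of replicate 1 peaks (123 of 806) and 8.84% of replicate 2 peaks (71 of 803) were that strong. Replicate 1 had 1 peak under 1e-06 among its 47 there (2.13%, 0.377 to 11.1), 3 among 26 in the left domain and 10 among 79 in the rest of IV. Replicate 2 had 0 of 62 (Wilson upper limit 5.83%), 2 of 25 in the left domain and 11 of 80 in the rest (13.8%, 7.86 to 23.0). The median value in the right domain was 0.000407 in replicate 1 (0.00025 to 0.000626) and 0.000379 in replicate 2 (0.000206 to 0.000537). In the rest of IV it was 0.00022 (5.43e-05 to 0.000321) and 0.00018 (7.15e-05 to 0.000279). These intervals overlap in both lists.

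The excess of peaks in the right domain was found on both sides of the 1e-06 limit in the series-wide list. Among peaks under 1e-06 its density was 10.5 per Mb against 6.20 in the rest, a ratio of 1.70 (1.12 to 2.55), and among weaker peaks the ratio was 1.91 (1.66 to 2.20). It was 2.57 (1.85 to 3.58) for peaks under 50 bp and 1.77 (1.53 to 2.05) for wider ones. The strongest 533 peaks of the whole list included 20 in the right domain (3.7 Mb) and 56 in the rest of IV (11.3 Mb). An excess was thus not shown for these strongest peaks, for which no ratio was taken. In the left domain the ratio was 1.16 (0.651 to 1.97) among peaks under 1e-06 and 1.48 (1.24 to 1.76) among weaker ones. Its excess was therefore resolved for the weaker peaks alone, and the difference between these strata was not tested.

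Overlap with the replicate lists, by at least 1 bp, was about as frequent in the domains as elsewhere when a single list was enough. Over the whole series-wide list, replicate 1 was overlapped by 13.9% of peaks, replicate 2 by 12.6%, at least 1 of them by 22.0% and both by 4.50%. In the left domain 23 of 187 peaks overlapped replicate 1 (12.3%, 8.34 to 17.8) and 23 overlapped replicate 2. In the right domain 37 of 362 overlapped replicate 1 (10.2%, 7.51 to 13.8) and 44 replicate 2 (12.2%, 9.18 to 15.9). In the rest of IV these counts were 68 of 586 (11.6%) and 66 (11.3%). At least 1 list was overlapped by 40 peaks of the left domain (21.4%), 77 of the right (21.3%) and 112 of the rest (19.1%). Both domains together differed from the rest by 2.20 percentage points in this share (Newcombe interval -2.47 to 6.89).

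Overlap with both lists was rarer in the right domain. It was seen for 4 of its 362 peaks (1.10%, Wilson 0.43 to 2.81), for 6 of 187 in the left domain (3.21%, 1.48 to 6.82) and for 22 of 586 in the rest of IV (3.75%, 2.49 to 5.62). The right domain differed from the rest by -2.65 points (Newcombe interval -4.63 to -0.531) and the left domain by -0.546 points (-3.09 to 3.28). Requiring a reciprocal overlap of 50% gave -1.56 points for the right domain, with an interval that includes 0 (-3.23 to 0.288).

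Split by support, the density of the right domain relative to the rest of IV took different values. It was 1.84 times (1.58 to 2.13) for peaks in neither replicate list and 2.48 times (1.79 to 3.41) for peaks in 1 list alone. For peaks in both lists it was 0.555 times (0.139 to 1.63), or 1.08 peaks per Mb against 1.95. The last interval does not reach that of the peaks in 1 list alone. In the left domain the ratios were 1.40 (1.16 to 1.69), 1.71 (1.11 to 2.56) and 1.23 (0.409 to 3.13), and their intervals overlap.

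Strength moved with replicate overlap, so the shares were also taken within strength classes. Among series-wide peaks under 1e-06, at least 1 replicate list was overlapped by 15 of 18 in the left domain (83.3%), 28 of 39 in the right (71.8%, 56.2 to 83.5) and 60 of 70 in the rest of IV (85.7%, 75.7 to 92.0). Over all chromosomes the share was 77.7%, inside the interval of the right domain. Replicate 1 was overlapped by 13 of the 39 strong right domain peaks (33.3%) and by 41 of the 70 others (58.6%), a difference of -25.2 points (-41.9 to -5.67), and over all chromosomes by 58.4%. For replicate 2 the counts were 19 of 39 (48.7%) and 37 of 70 (52.9%), a difference of -4.14 points (-22.8 to 14.9), with 47.2% over all chromosomes. The deficit among strong peaks was thus seen against replicate 1 and was not resolved against replicate 2.

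Among the weaker peaks the shares of the domains lay above that of the rest of IV. For strong peaks the lower right domain share in at least 1 list was not resolved (-13.9 points, -30.7 to 1.48). At least 1 list was overlapped by 25 of 169 in the left domain (14.8%), by 49 of 323 in the right (15.2%) and by 52 of 516 in the rest of IV (10.1%). Both domains together (15.0%, 12.2 to 18.5) lay 4.96 points above the rest (0.871 to 9.10). Over all chromosomes the share of weaker peaks was 12.3%, which lies inside the interval of the domains. None of the 323 weaker right domain peaks overlapped both lists, with a Wilson upper limit of 1.175%. In the rest of IV 4 of 516 did, and over all chromosomes 18 of 4544 (0.396%), which is below that limit.

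**Figure D4:**
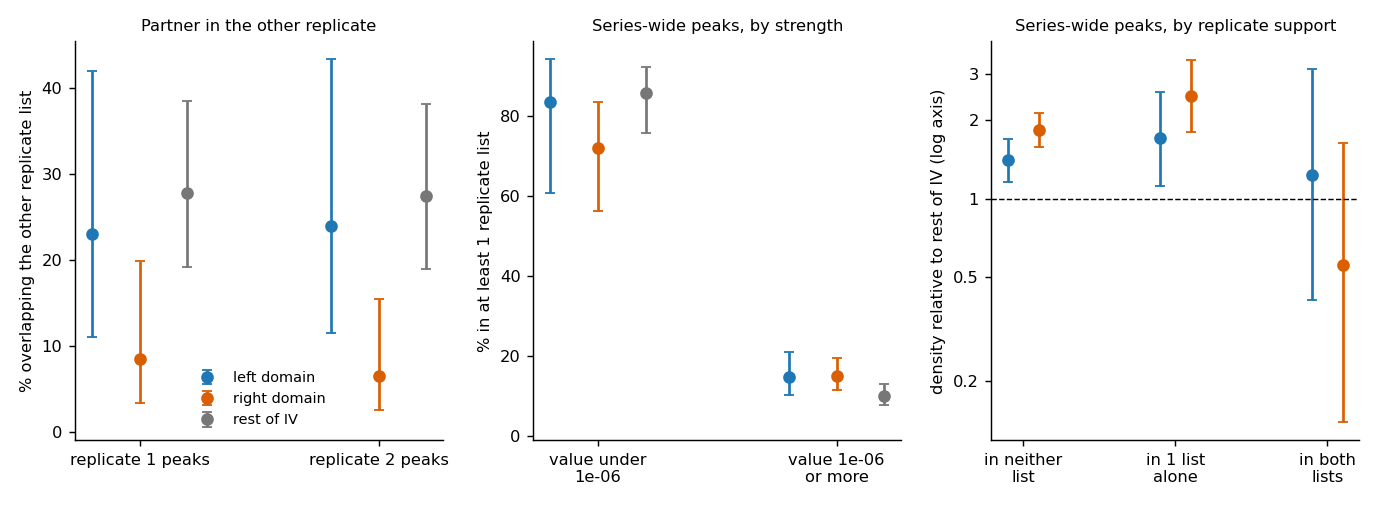
Left: percentage of each replicate's peaks that overlap the other replicate list, with Wilson 95% intervals. Middle: percentage of series-wide peaks in at least 1 replicate list, by value, with Wilson intervals. Right: density relative to the rest of IV (log axis, exact intervals, dashed line at 1) for series-wide peaks in neither, 1 or both replicate lists. The right domain is lowest in the left panel, 8.51% and 6.45%, and falls under 1 in the right panel only for peaks in both lists.

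Seen from the replicate lists, peaks of the right domain seldom recurred at the same place. In replicate 1, 4 of 47 right domain peaks overlapped a replicate 2 peak (8.51%, Wilson 3.36 to 19.9), against 6 of 26 in the left domain (23.1%, 11.0 to 42.0), 22 of 79 in the rest of IV (27.8%, 19.2 to 38.6) and 29.0% over the whole list. In replicate 2, 4 of 62 right domain peaks had a partner (6.45%, 2.54 to 15.5), against 6 of 25 in the left domain (24%, 11.5 to 43.4), 22 of 80 in the rest (27.5%, 18.9 to 38.1) and 29.3% over the whole list. The right domain differed from the rest of IV by -19.3 points in replicate 1 (Newcombe interval -31.2 to -4.99) and by -21.1 points in replicate 2 (-32.4 to -8.61). These shares count the same 4 regions from either side and are not independent.

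Few right domain peaks of the replicate lists had a value under 1e-06 (1 of 47 in replicate 1 and 0 of 62 in replicate 2). The share was therefore taken again among peaks with a value of 1e-06 or more, a choice made after the data were seen. Then 4 of 46 right domain peaks against 14 of 69 in the rest had a partner in replicate 1 (-11.6 points, -23.7 to 2.41), and 4 of 62 against 16 of 69 in replicate 2 (-16.7 points, -28.6 to -4.44). Among these weaker peaks the interval of the difference includes 0 in replicate 1 and lies below 0 in replicate 2.

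Both replicates thus held a surplus of peaks in the right domain, mostly at different positions in it. Most peaks in the rest of IV also lacked a partner, 57 of 79 in replicate 1 and 58 of 80 in replicate 2. From the centre of a right domain peak of replicate 2 to the nearest centre in replicate 1 the median distance was 23.4 kb, and 18 of 62 lay within 10 kb. From replicate 1 peaks the median was 10.5 kb, and 22 of 47 lay within 10 kb. These shares were 29.0% from replicate 2 and 46.8% from replicate 1, against 53.75% and 45.6% in the rest of IV. In the rest of IV the median distances were 7.95 kb from replicate 2 and 16.6 kb from replicate 1. Distances shrink where peaks are dense, so they are given as a description.

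Most replicate peaks of the domains were in the series-wide list too. In the left domain these were 24 of 26 from replicate 1 and 23 of 25 from replicate 2. In the right domain they were 37 of 47 (78.7%, 65.1 to 88.0) and 45 of 62 (72.6%, 60.4 to 82.1), against 92.7% and 84.2% over all chromosomes. In the rest of IV they were 68 of 79 (86.1%) and 68 of 80 (85%). The right domain differed from the rest by -7.35 points in replicate 1 (-22.2 to 5.80) and by -12.4 points in replicate 2 (-26.1 to 0.982), and both intervals include 0.

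The 10 domain peaks found in both replicate lists are the regions with the most support. In the left domain 4 of the 6 were among the 60 strongest peaks of the whole series-wide list. The strongest lay at 4749823 to 4750356, was 534 bp wide and ranked 32 of 5338, with a value of 6.11e-19. Its value was 3.28e-10 in replicate 1 (rank 30) and 2.34e-08 in replicate 2 (rank 31), so it stood near the same rank in all 3 lists. A weaker neighbour in both lists lay at 4725327 to 4725663 (3.41e-07, with 0.000249 in replicate 1 and 0.000772 in replicate 2).

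A pair of adjacent peaks in the left domain followed. One lay at 5655831 to 5656568, was 738 bp wide and had a value of 2.05e-15 (replicate 1 gave 1.32e-09, replicate 2 gave 5.79e-05). The other lay at 5657034 to 5657520, was 487 bp wide and had 7.61e-16, with 2.24e-07 and 8.95e-08. Replicate 1 ranked the first of the pair higher (rank 35 against 97), and replicate 2 the second (rank 41 against 206). All of these ranks are within a list.

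The widest domain peak, 1360 bp at 5753300 to 5754659 in the left domain, had a series-wide value of 4.97e-16. It was modest in replicate 1, 393 bp wide with 0.000653 (rank 672 of 806), and stronger in replicate 2, 645 bp wide with 6.98e-06 (rank 102 of 803). The remaining left domain peak, at 5878089 to 5878465, had a series-wide value of 0.00066 (rank 4693 of 5338). Its values were 0.00024 in replicate 1 (rank 441 of 806) and 0.000388 in replicate 2 (rank 457 of 803). It thus stood low in the series-wide list and near the middle of each replicate list.

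In the right domain the 4 peaks in both lists had series-wide values between 8.88e-12 and 1.06e-08 and widths between 275 and 465 bp. The strongest lay at 14464007 to 14464334 (328 bp, 8.88e-12; replicate 1 gave 1.23e-05 and replicate 2 gave 5.57e-05). After it came the peak at 16810429 to 16810703 (6.33e-09, with 0.000217 and 0.000147), where the replicate 1 peak was 47 bp wide. Those at 15646382 to 15646846 (8.19e-09, with 0.000126 and 0.000218) and at 15570623 to 15571047 (1.06e-08, with 0.000122 and 0.000663) lay in the same part of the domain. All 4 had replicate values above 1e-05, while 4 of the 6 in the left domain reached a smaller value than that in at least 1 replicate.

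**Figure D5:**
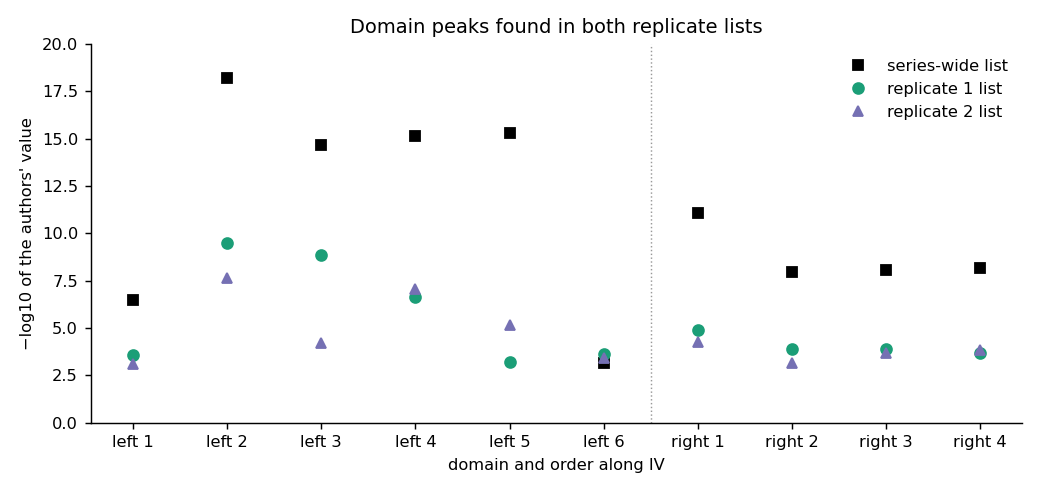
Each of the 10 domain peaks that overlap both replicate lists, in order along IV, with −log10 of its value in the series-wide list (squares), the replicate 1 list (circles) and the replicate 2 list (triangles). Heights can be compared within a list only. Left domain peaks 2 to 5 stand highest in the series-wide list, from 2.05e-15 to 6.11e-19, and the right domain peaks stay above 1e-05 in both replicates.

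Some of the strongest domain peaks lacked support from 1 or both replicates. Over all chromosomes, 222 of 794 series-wide peaks under 1e-06 overlapped both lists (27.96%), and 617 overlapped at least 1 (77.71%). The 5 strongest of each domain ranked 325 or better in the whole list, so most of these 794 peaks were weaker. A shortfall among the strongest therefore cannot be judged from these shares. Of the 5 strongest in the left domain, all but the weakest were in both lists. The weakest, at 5821852 to 5823002, was 1151 bp wide with a value of 4.08e-11 and overlapped neither list. Of the 5 strongest in the right domain, 2 were in both lists. The peak at 13944262 to 13944998 (737 bp, 3.73e-11) was in replicate 2 alone, where its value was 3.57e-05. That at 13881579 to 13882182 (604 bp, 4.6e-11) was in replicate 1 alone, with 1.58e-07, and the peak at 17161618 to 17161902 (1.8e-09) was in replicate 2 alone, with 4.48e-05. The widest of the right domain, 1275 bp at 16787135 to 16788409 (1.83e-06), was in neither.

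The leading right domain peak was not the same in the replicate lists. In replicate 1 this was the region at 13881583 to 13882186 (1.58e-07, rank 89), with no partner in replicate 2. In replicate 2 it was the region at 13951576 to 13951888 (4.96e-06, rank 96), with no partner in replicate 1. In the left domain the leading peak was the same region in both lists, at 4749850 to 4750228 in replicate 1 and at 4749848 to 4750325 in replicate 2. The strongest left domain peaks without a partner were weaker, at 5342154 to 5342323 in replicate 1 (4.21e-05) and at 6767162 to 6767804 in replicate 2 (3.22e-05).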

How the data were processed

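The lists (GFF version 3) describe either 1 ChIP sample or the series as a unit. Per the file headers and source fields, PeakSeq was the caller and WS220 the build; its version and threshold, the aligner, the control and any pooling of reads were not given in the sources used here. The significance of each peak is the authors' deposited p-value or q-value (which of these is not stated), used within a list only. Start and end positions are as deposited.

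Samples were grouped by their titles. Peaks were assigned to regions by midpoint. IV was taken to end at its last peak base over all lists (17492308). Overlap meant at least 1 bp. With 2 ChIP samples and 1 condition no test over samples was possible, so intervals at 95% are given without p-values: exact Poisson for densities, exact binomial for their ratios, Wilson for shares, Newcombe for differences of shares and exact order statistics for medians. All intervals cover counting error only. Computations used Python 3.11.15, pandas 2.3.3, numpy 2.4.6 and scipy 1.17.1, and were tested on simulated data.

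The domains, comparisons and naming rule were chosen with earlier results of these data known. Peaks named are those in both replicate lists, the 5 strongest and the widest of each domain, those at the edges, and the strongest of each replicate with and without a partner. Alternatives covered overlap, the value limit of 1e-06, peaks under 50 bp, domain edges, the reference region and each replicate left out. No genome of the build was used, so no sequences or genes are given for peaks.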

Additional observations from a re-analysis of the deposited data

How the results depend on the processing

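Of 63 alternative values for 14 results, 48 stayed inside the 95% interval of the reported value and 15 lay outside it. Of the differences of shares, 4 changed sign, 3 of them outside the interval. The left domain's density ratio to the rest of IV moved from 1.44 to 1.16 for peaks under 1e-06 and to 1.21 without its densest 500 kb (chosen after seeing the data), and both intervals include 1; with a replicate list by itself it was 1.41 to 1.49. The right domain's ratio was 1.82 to 2.36 and that of right to left domain 1.22 to 1.68 with a replicate list by itself. Median widths moved for peaks under 1e-06, to 459.5 bp (left domain), 325 bp (right domain) and 457 bp (rest of IV), and without peaks under 50 bp, to 162 bp (right domain) and 196 bp (rest of IV); the right domain stayed narrowest. Without peaks under 50 bp the right domain's median value was 9.90e-05.

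For shares of series-wide peaks, both domains minus the rest of IV, the difference for at least 1 replicate list was -10.3 points (-24.3 to 3.44) among peaks under 1e-06 and -0.675 to 0.941 with a replicate left out. For both lists it was -9.93 points (-23.4 to 4.60) among peaks under 1e-06, and -15.5 (-28.4 to 0.50) for the right domain. With a replicate left out, when 1 list is enough, it was -0.675 to 0.941 for both domains and -1.38 to 0.892 for the right domain; over peaks of all strengths no deficit of the right domain was resolved with 1 list alone.

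No paired analysis was possible because the inputs, which share replicate numbers with the ChIP samples, have no list analysed here. The lists give no depth, so a peak missing from a replicate list does not show that the region was unbound.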
